A study of Homo sapiens with 4 samples.

Results

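The genes of the BCL2 family that govern mitochondrial apoptosis were examined in PC9 lung adenocarcinoma cells with and without depletion of TPX2. The 10 genes were taken by symbol from the 18134 genes of the expression table, and comprised the anti-apoptotic genes BCL2, BCL2L1 and MCL1, the effectors BAX and BAK1, and the BH3-only genes BCL2L11, BBC3, BID, BAD and PMAIP1. PC9 is a widely used cell line that was established from a human lung adenocarcinoma. The cells had been infected with lentivirus carrying either shTPX2, 1 hairpin against the spindle assembly factor TPX2, or the control hairpin shNC, and both groups were then kept under antibiotic selection as stable lines. Polyadenylated RNA was sequenced as 2 libraries per group, 4 in all, from 1 batch. The labels do not say whether the libraries of a group came from separate cultures, so the p-values measure the spread between these libraries, which may be technical.

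BCL2 family proteins decide whether the outer mitochondrial membrane stays intact. The effectors BAX and BAK1 form pores in that membrane, through which cytochrome c leaves and activates caspases. Anti-apoptotic members hold the effectors and their activators in a groove on their surface, and BH3-only members, which sense damage, growth factor loss or stress, fill that groove or activate the effectors directly. Lung adenocarcinoma cells with mutant EGFR, such as PC9, are known for a strong dependence of drug-induced death on BIM, the product of BCL2L11.

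The feature shared by all 10 genes is the BH3 segment, the short helix that fits into the groove of a partner. The coding bases of its core are shown because they are what ties these genes to each other. They were read from the GENCODE v29 transcripts (GRCh38), run from 5′ to 3′ and are given from the leucine codon to the third codon after the aspartate codon. Capitals mark the leucine codon and the aspartate codon. BMF, a further BH3-only gene described later, is shown with them.
BCL2: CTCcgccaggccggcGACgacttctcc
BCL2L1: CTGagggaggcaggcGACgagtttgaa
MCL1: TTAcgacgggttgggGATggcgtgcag
BAX: CTCaagcgcatcgggGACgaactggac
BAK1: CTCgccatcatcgggGACgacatcaac
BCL2L11: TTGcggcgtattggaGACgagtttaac
BBC3: CTGcggcggatggcgGACgacctcaac
BID: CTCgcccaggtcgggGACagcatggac
BAD: CTCcggaggatgagtGACgagtttgtg
PMAIP1: CTCaggagatttggaGACaaactgaac
BMF: CTTcagtgcattgcaGACcagttccac

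The search pattern was a leucine, any 3 residues, a glycine, alanine or serine, and an aspartate, applied to 1 principal coding transcript per gene. Each of the 11 genes held it. BID held 2 matches, of which the one in the known BH3 segment is shown. It lies at codons 136 to 144 in the transcript used, whose protein has 241 residues. The pattern is loose, since 6816 of the 19488 coding genes searched held it at least once, and a match alone does not make a BH3 segment.

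The libraries were close in depth, with expected-count totals from 20906441 to 21972583. The log2 CPM of different libraries correlated across genes, which are not independent replicates, with Pearson's r of 0.9662 to 0.9825, and the highest value was between shNC 1 and shTPX2 1, across the groups. TPX2, the targeted gene, measured 55.01 and 111.85 TPM under shNC against 43.35 and 43.77 TPM under shTPX2. The shNC libraries thus differed from each other by more than 2-fold in the targeted gene. Its log2 fold change was -0.81 in edgeR (standard error 0.32, edgeR adjusted p = 0.618). In limma it was -0.73 with all 4 libraries and -0.24 without shNC 2. Of the epithelial markers, EPCAM, CDH1, KRT7, KRT8, KRT18, KRT19 and EGFR were at 78.42 TPM or more in the 4 libraries. NKX2-1, the lung lineage factor, stood at 0.04 to 1.55 TPM, NAPSA at 0.83 to 1.67 TPM and SFTPB at 0.47 to 1.05 TPM. The summed level of 5 immune markers was 9.26 to 32.2 TPM, that of 6 fibroblast markers 5.9 to 12.4 TPM and that of 4 endothelial markers 19.9 to 36.5 TPM. Of these markers CDH5 was a DEG higher in shTPX2 and PDGFRB, at 0.4 TPM or less, a DEG lower, by the criteria given next, and their part in the results was not tested. In RNA from whole cultures, fewer cells of a type and less RNA per cell cannot be told apart.

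A gene was called differentially expressed (DEG) at the criteria in the study's methods, namely p up to 0.1 without adjustment together with a change of 0.3 or more on the log2 scale, in limma after the voom transformation, where the base of the logarithm is not given in the methods and was taken as 2. The stricter test was the quasi-likelihood test of edgeR, adjusted over all 14048 tested genes by the Benjamini-Hochberg method, from which the log2 fold changes and their standard errors (SE) below are taken unless limma is named. All 10 BCL2 family genes passed the filter on low counts. At the DEG criteria 3 of the 10 were higher in shTPX2, namely BID, BAD and BAX, and 0 were lower. Over all tested genes 6.24% were DEGs higher in shTPX2, 7.99% were DEGs lower and 14.2% were DEGs in either direction. At an adjusted p under 0.05, edgeR called 0 of the 10 genes and 0.0% of all genes. At an unadjusted p under 0.05 edgeR called BID alone of the 10, on the higher side, against 8.03% of all genes (3.13% higher and 4.9% lower). DESeq2 called 0 of the 10 at an adjusted p under 0.05, against 0.79% of all genes. The 10 genes had a median log2 fold change of 0.11, with 6 above and 4 below 0, and -0.01 over all tested genes. With library sizes alone in place of the TMM factors, which correct for differences in composition between libraries, this median was 0.04 and BID was the 1 DEG left among the 10.

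The levels of the family spanned a wide range, and the order of the group means was the same in shNC and shTPX2 but for BCL2L11 and PMAIP1, which changed places. Levels are compared between genes in TPM, which is scaled by transcript length. BCL2L1 was the most abundant member, with a mean of 220 TPM over the 4 libraries, followed by BAX at 183, BAD at 126, MCL1 at 91.5, BID at 62.8 and BAK1 at 35.5 TPM. The ranges of neighbours in that order did not overlap down to BBC3. The range of BAK1 did overlap that of BCL2L11, further down, with 31.12 TPM in shTPX2 1 against 32.77 TPM in shNC 1. BBC3 at 25.6, BCL2L11 at 23.0 and PMAIP1 at 22.5 TPM could not be ordered, since their ranges overlapped. BCL2 was far below the rest at 1.12 TPM.

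**Figure D1:**
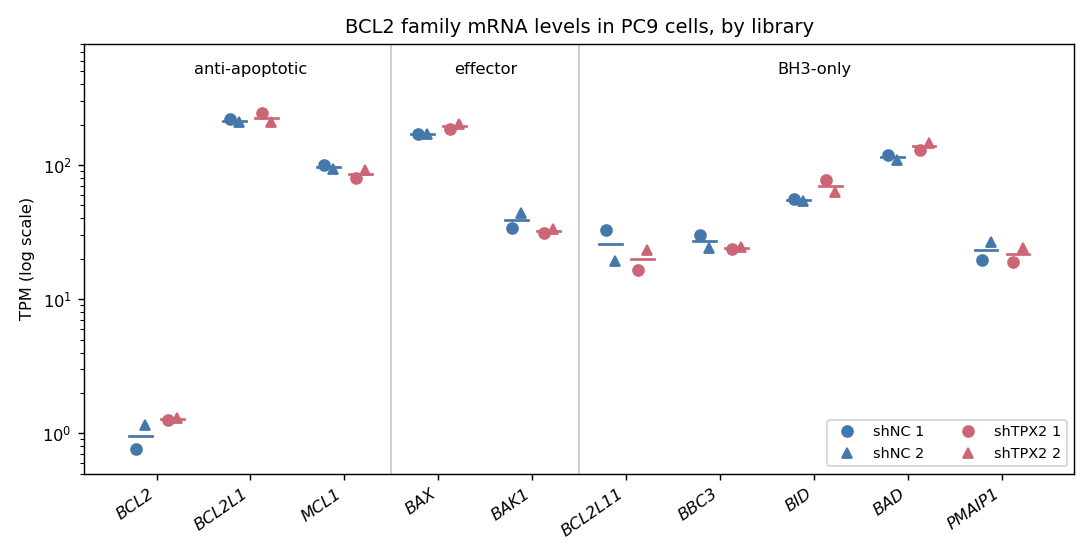
Level of each BCL2 family gene in TPM (log scale) in shNC (blue) and shTPX2 (red) libraries, circles for library 1 and triangles for library 2, with a bar at each group mean. BCL2L1 lies highest at 207.98 to 242.61 TPM and BCL2 lowest at 0.76 to 1.3 TPM. Both shTPX2 libraries lie above both shNC libraries for BID, BAD, BAX and BCL2, and below both for MCL1 and BAK1. Over all tested genes 10.7% lie wholly higher in shTPX2 in TPM and 30.3% wholly lower.

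Among the anti-apoptotic genes, none passed the DEG criteria. BCL2L1, which encodes BCL-XL, lies on chromosome 20 from 31664452 to 31723989 on the minus strand in GRCh38. Its neighbour there is the targeted gene itself: TPX2 starts at 31739271 on the plus strand, 15281 bases lie between the ends of the annotated genes, and GENCODE v29 has 0 genes in that gap. BCL2L1 measured 220.63 and 207.98 TPM under shNC against 242.61 and 210.27 TPM under shTPX2. The groups overlapped in TPM, with the second shTPX2 library below the first shNC library. This was a log2 fold change of 0.20 (SE 0.18, edgeR adjusted p = 0.808), and the 95% interval of the fold from limma was 0.854 to 1.53. The gap in TPX2 between the shNC libraries stood beside BCL2L1 values that differed by a factor of 1.06. A relation between the levels of these genes was not tested.

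MCL1, a short-lived guard against BIM and BAK1, measured 100.7 and 93.96 TPM under shNC against 79.91 and 91.35 TPM under shTPX2. In TPM the shTPX2 libraries were the lower ones without overlap, but in TMM-scaled CPM the groups overlapped, with 198 and 177 in shNC and 171 and 187 in shTPX2. The log2 fold change was -0.07 (SE 0.17, edgeR adjusted p = 0.944), while leaving out shNC 1 gave 0.03 and leaving out shTPX2 1 gave 0.0. The interval of the fold from limma ran from 0.724 to 1.26, so changes within that range cannot be told from none. BCL2, the founding member of the family, had 28 and 52 expected counts in shNC and 46 and 53 in shTPX2. At these counts its log2 fold change of 0.38 had a standard error of 0.45, and the interval of the fold was 0.657 to 2.79. Leaving out shNC 1 gave 0.03 and leaving out shNC 2 gave 0.87, so the value of 1 control library set its size.

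The summed level of the 3 anti-apoptotic genes was 322 and 303 TPM under shNC against 324 and 303 TPM under shTPX2, with means of 313 ± 13.4 and 313 ± 14.8 TPM (SD, n = 2 each). BCL2L1 supplied 68.5% and 68.6% of that sum in shNC and 74.9% and 69.4% in shTPX2. MCL1 supplied 31.3% and 31.0% in shNC and 24.7% and 30.2% in shTPX2. The anti-apoptotic transcript pool of these cells was therefore mostly BCL2L1 in all 4 libraries, with BCL2 at 0.429% or less.

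Of the effectors, BAX passed the DEG criteria and BAK1 did not. BAX (chromosome 19, 48954815 to 48961798, plus strand) measured 170.32 and 172.01 TPM under shNC against 184.88 and 203.35 TPM under shTPX2. Both shTPX2 libraries were above both shNC libraries, and the shNC libraries were within 1.69 TPM of each other. The log2 fold change was 0.30 (SE 0.16, edgeR adjusted p = 0.686), a fold of 1.23. The unadjusted p of limma was 0.0973, just inside the criterion, and the log2 fold change lay on the threshold of 0.3. The call was lost with library size only, with a minimum of 10 counts in every library, with quantile normalization and with any 1 of the 4 libraries left out, where the log2 fold change stayed between 0.26 and 0.36. BAK1 measured 34.24 and 43.59 TPM under shNC against 31.12 and 33.1 TPM under shTPX2. In TPM both shTPX2 libraries lay under either shNC library, but in TMM-scaled CPM the groups overlapped, with 35.8 and 44.5 in shNC and 35.6 and 36.8 in shTPX2. The log2 fold change was -0.15 (SE 0.18) on the TMM scale and 0.01 without shNC 2. BAX and BAK1 thus took opposite signs, but the difference between them was not tested.

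**Figure D2:**
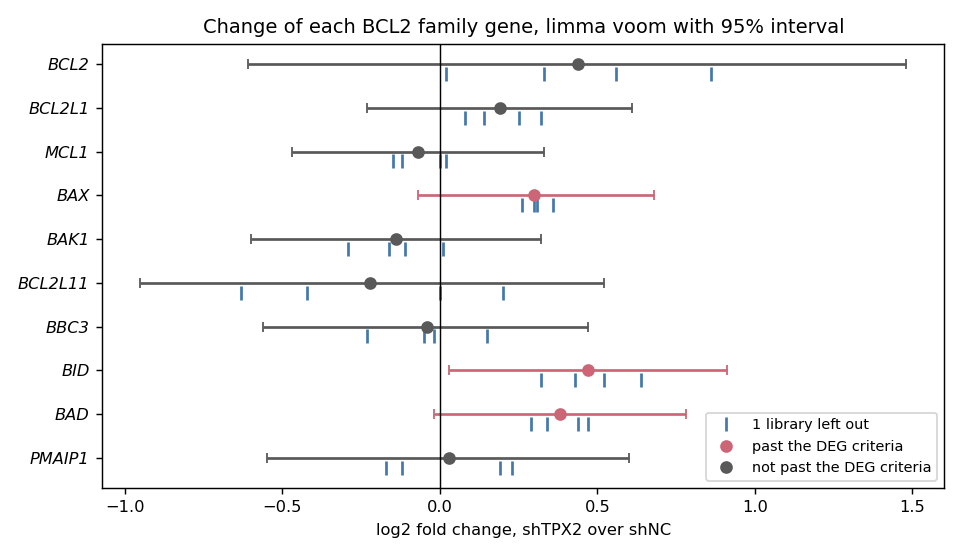
Log2 fold change of each gene in shTPX2 over shNC from limma voom, with its 95% interval as a bar, in red for the genes past the DEG criteria, and blue ticks for the values with 1 library left out. The interval lies above 0 for BID alone (0.03 to 0.91), and the ticks of BCL2L11 run from -0.63 to 0.20.

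The BH3-only genes fell into 2 kinds of pattern. BID and BAD passed the DEG criteria, while BCL2L11, BBC3 and PMAIP1 varied at least as much between libraries of a group as between groups. BID, whose product is cut by caspase-8 to carry death receptor signals to the mitochondrion, had the smallest p of the 10 genes. It lies on chromosome 22 from 17734138 to 17774770 on the minus strand, and its exons overlap those of 0 other annotated genes. BID measured 56.05 and 54.31 TPM under shNC against 77.29 and 63.36 TPM under shTPX2, with means of 55.2 ± 1.23 and 70.3 ± 9.85 TPM (SD, n = 2 each). The shNC libraries were nearly equal, and both shTPX2 libraries stood above them, at unequal heights. BID thus had a log2 fold change of 0.48 (SE 0.18, edgeR adjusted p = 0.603), a fold of 1.4, and the unadjusted p was 0.0348 in edgeR and 0.0388 in limma. BID was a DEG in 3 of the 4 fits with a library left out. Without shTPX2 1, its highest library, the limma log2 fold change was 0.32 with an unadjusted p of 0.243.

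BAD, which is held inactive by growth factor signalling through its phosphorylation, lies on chromosome 11 from 64269830 to 64284704 on the minus strand. It measured 118.69 and 109.97 TPM under shNC against 129.65 and 145.65 TPM under shTPX2. Both shTPX2 libraries stood above both shNC libraries. For BAD the log2 fold change came to 0.38 (SE 0.16, edgeR adjusted p = 0.634), a fold of 1.3, and limma gave an unadjusted p of 0.0572. The call held without shNC 1 and was lost without shNC 2, shTPX2 1 or shTPX2 2, at log2 fold changes of 0.29, 0.44 and 0.34, and with library size only, at 0.31. GPR137, on the opposite strand, overlaps exons of BAD, and the strand setting of the quantification is not given in the sources used here, so reads of the pair cannot be told apart. The same limit holds for BCL2L1 with ABALON, BAK1 with GGNBP1, BCL2L11 with MIR4435-2HG and BBC3 with the hairpin MIR3190, each on the opposite strand. MCL1 shares annotated exon bases with ADAMTSL4-AS1, and BBC3 with the hairpin MIR3191, on the same strand. A strand setting would not separate the reads of these same-strand pairs.

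BCL2L11 lies on chromosome 2 from 111119378 to 111168447 on the plus strand. It measured 32.77 and 19.23 TPM under shNC against 16.64 and 23.39 TPM under shTPX2. The shNC libraries differed by a factor of 1.7, the widest gap within a group among the 10 genes, and shNC 2 lay between the shTPX2 libraries. The log2 fold change was -0.26 (SE 0.30, edgeR adjusted p = 0.857). Without shNC 1 it was 0.21, and without shNC 2 it was -0.61, at which limma called BCL2L11 a DEG lower in shTPX2 with an unadjusted p of 0.0357. The direction of BIM mRNA in shTPX2 therefore depended on which control library was used.

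BBC3 encodes PUMA and PMAIP1 encodes NOXA, both of them classical targets of p53. BBC3 measured 30.27 and 23.96 TPM under shNC against 23.53 and 24.45 TPM under shTPX2. PMAIP1 measured 19.63 and 26.93 TPM under shNC against 19.06 and 24.27 TPM under shTPX2. In both genes the groups overlapped. The log2 fold changes were -0.06 for BBC3 and 0.02 for PMAIP1, with standard errors of 0.21 and 0.24 and adjusted p-values of 0.965 and 0.989 from edgeR. For BBC3 the sign turned without shNC 1, and for PMAIP1 it turned with library size only and without shNC 1 or shTPX2 2. The intervals of the fold from limma were 0.679 to 1.39 and 0.682 to 1.52.

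In TMM-scaled CPM the groups did not overlap for 4 of the 10 genes, BCL2L1, BAX, BID and BAD, each higher in shTPX2. Over all tested genes 39.6% did not overlap in either direction, with 19.4% higher and 20.2% lower, so 4 of 10 is near the background for both directions together. In TPM as deposited there were 4 higher, with BCL2 in place of BCL2L1, and 2 lower, MCL1 and BAK1. Over all tested genes 41.0% did not overlap in TPM, with 10.7% higher and 30.3% lower, so TPM placed more genes on the lower side than the TMM scale did.

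The balance between the classes was compared as a ratio of summed TPM within each library, which does not depend on the scaling between libraries. The ratio of anti-apoptotic genes to effectors was 1.57 and 1.41 in shNC and 1.5 and 1.28 in shTPX2. The groups overlapped, and the two-sided exact permutation p was 0.667. The ratio of anti-apoptotic to BH3-only genes was 1.25 and 1.29 in shNC and 1.22 and 1.08 in shTPX2. Here the groups did not overlap and shTPX2 was lower, with a difference of -0.15 on the log2 scale, and the exact permutation p of 0.333 is the smallest that 2 libraries against 2 allow. With expected counts in place of TPM this difference was -0.09, with an exact permutation p of 0.667. The BH3-only sum did not hold BMF, a BH3-only gene described below. BMF measured 26.41 and 40.02 TPM under shNC against 19.34 and 15.91 TPM under shTPX2. The separation of the groups in this ratio thus depends on which BH3-only genes are summed. BH3-only genes summed to 257 and 234 TPM under shNC against 266 and 281 TPM under shTPX2. BAD made up 46.1% and 46.9% of this sum in shNC and 48.7% and 51.8% in shTPX2.

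**Figure D3:**
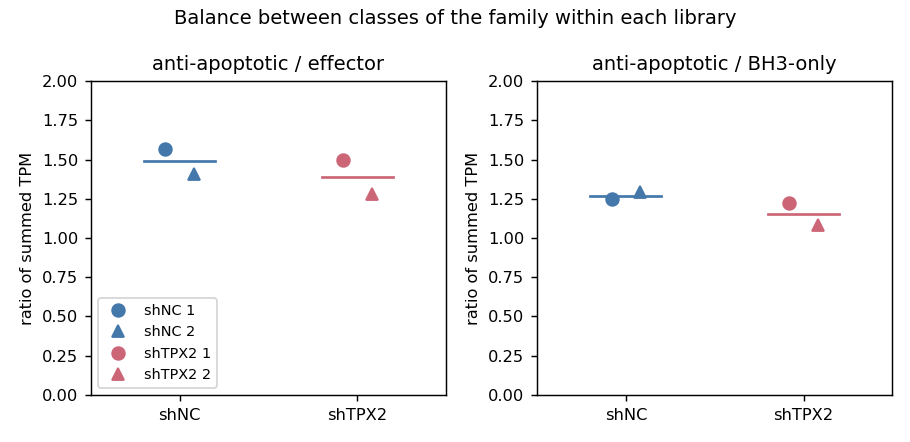
Ratio of the summed TPM of BCL2, BCL2L1 and MCL1 to that of the effectors (left) and of the BH3-only genes (right) in each library, with a bar at each group mean. The ratio to effectors overlaps between groups (1.28 to 1.57 over the 4 libraries). The ratio to the BH3-only genes summed here, without BMF, is lower in both shTPX2 libraries by a small margin (1.22 against 1.25 at the closest).

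Around the 10 genes, lists of related genes were examined, written from general knowledge. Of the other BCL2 family genes, 9 of 11 were tested and 1 was a DEG. BMF, a BH3-only gene tied to loss of cell attachment, measured 26.41 and 40.02 TPM under shNC against 19.34 and 15.91 TPM under shTPX2. The groups did not overlap, and the log2 fold change of -0.80 (SE 0.24, edgeR adjusted p = 0.579) was larger in size than that of any of the 10 genes. BMF stayed a DEG with each library left out in turn, at -1.05 to -0.51, and its exons overlap those of BMF-AS1 on the opposite strand. BCL2A1 was at 0.13 TPM or less and BCL2L10 was listed at 0.0 TPM in the 4 libraries, and neither was tested. The other tested genes of this list, among them the anti-apoptotic BCL2L2 (log2 fold change 0.21) and the effector relative BOK (0.16), did not pass.

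The steps after the mitochondrion comprised 20 genes, from VDAC channels and cytochrome c to caspases and their inhibitors, and 1 was a DEG. BIRC5, which encodes the inhibitor of apoptosis and mitotic protein survivin, measured 21.38 and 41.09 TPM under shNC against 44.13 and 44.41 TPM under shTPX2. The log2 fold change of 0.64 rested on shNC 1, since without it the limma value was 0.28 and the call was lost. The initiator CASP9 had a log2 fold change of 0.0. Of the 13 tested genes of the death receptor steps, which include the TRAIL receptors, CASP8 and CFLAR, 0 were DEGs, and the smallest unadjusted p was 0.285 in edgeR. BID was thus higher at the DEG criteria beside a CASP8 log2 fold change of -0.01.

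Of 18 tested p53 targets 2 were DEGs higher and 2 were DEGs lower in shTPX2, which is 22.2% against 14.2% of all genes, and the other 14 did not pass. GDF15, a stress cytokine, measured 213.58 and 149.71 TPM under shNC against 242.86 and 309.63 TPM under shTPX2, a log2 fold change of 0.72. AEN, an apoptosis-enhancing nuclease, had the same log2 fold change of 0.72 at a lower level. ZMAT3, an RNA-binding target of p53, measured 8.56 and 9.96 TPM under shNC against 5.05 and 5.33 TPM under shTPX2, a log2 fold change of -0.71. RRM2B, the p53-inducible ribonucleotide reductase subunit, had a log2 fold change of -0.47. GDF15 and ZMAT3 stayed DEGs with each library left out, AEN lost the call without shTPX2 1 and RRM2B without shTPX2 2. CDKN1A, which encodes p21, spread from 17.46 to 43.48 TPM with overlapping groups, and MDM2 had a log2 fold change of 0.08. The median over the list was 0.01 in edgeR and just below 0 in limma.

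Among 15 transcription factors known to act on genes of the family, E2F1 was a DEG higher in shTPX2, with a log2 fold change of 0.67, and TP63 a DEG lower, with -1.39. E2F1 measured 19.36 and 24.61 TPM under shNC against 34.96 and 28.86 TPM under shTPX2. TP63 was weakly expressed, with 2.17 and 5.04 TPM under shNC against 1.08 and 1.45 TPM under shTPX2, and its limma value was -0.76 without shNC 2. Both calls were lost without shTPX2 1. FOXO3, a known activator of BCL2L11, had a log2 fold change of -0.39 (unadjusted p = 0.12 in edgeR) and did not pass. Among 18 genes of protein turnover and localisation, such as the MCL1 ubiquitin ligase HUWE1, the 14-3-3 proteins that hold BAD and the dynein light chains that hold BCL2L11 and BMF, 1 was a DEG. This was BAG3, a co-chaperone, at 100.86 and 114.96 TPM under shNC against 127.07 and 133.88 TPM under shTPX2. Its call was lost without shNC 1, shTPX2 1 or shTPX2 2. In these lists edgeR and DESeq2 each called 0 genes at the adjusted threshold of 0.05, and edgeR called 4 higher and 4 lower at an unadjusted p under 0.05.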

How the data were processed

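Reads were processed by the authors, whose methods name SOAPnuke, HISAT2/Bowtie2 and RSEM or StringTie, while the submitters' processing notes name HISAT2, featureCounts, DESeq2 and the build GRCh38. Versions, annotation and strand setting are not given in the sources used here. The authors deposited expected counts per gene and library without normalization, and 42.15% to 44.58% of the genes per library were not whole numbers. The deposited TPM values are scaled by transcript length and library, and the deposited FPKM values served to derive transcript lengths only. Columns of group means equalled the mean of the 2 libraries in 2.8% to 3.34% of genes (tolerance 0.01 counts) and were not used.

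Expected counts were rounded to 0 decimals, filtered with filterByExpr (14048 genes kept) and scaled with TMM factors (0.959 to 1.05). The edgeR 4.0.16 quasi-likelihood test, limma 3.58.1 with voom and, as an alternative, DESeq2 1.42.0 were run on the whole table in R 4.3.3, with Benjamini-Hochberg adjustment. The common dispersion, a measure of the spread between libraries beyond counting, was 0.0485. Standard errors of edgeR were derived from its F statistic. The scripts were tested on simulated counts. Class ratios were compared by an exact permutation test in SciPy 1.17.1. The genes and lists were chosen with earlier results of these data known. Named genes were the 10 members, every DEG of the lists, CDKN1A, MDM2 and TPX2, and further genes were named after their values were seen. MARCHF5 was found by gene number, as its symbol was stored as a date. FASLG was not analysed here. Some items are not reported here.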

Additional observations from a re-analysis of the deposited data

How the results depend on the processing

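No member had an adjusted p under 0.05 in edgeR under any alternative (0 each). The count of DEGs among the 10 genes was 3, where 14.2% of all tested genes were DEGs. It fell to 1 (BID) with library size only, where 14.4% were, and to 0 with adjusted p-values. In fits with 1 library left out, the lone library is assumed to vary like the other group. There the limma log2 fold change ran from 0.32 to 0.64 for BID, 0.29 to 0.47 for BAD and 0.26 to 0.36 for BAX. Each of these 3 calls was lost in some of those fits. Over all genes the DEGs numbered 1998, with 43.8% of them higher, which library size only moved to 28.6%. Their number was 1 with adjusted p-values, and 1018 without shTPX2 2 to 3515 without shNC 1. Under no tested scaling did the median of all genes move by more than 0.07. The median log2 fold change of the members, 0.11, was 0.04 with library size only and 0.10 to 0.19 with 1 library left out. Members not overlapping numbered 4, and 5 to 9 with 1 library left out, where a single library faces 2 and 65.6% to 75.8% of all genes did not overlap. DEGs of the lists numbered 9, and 8 to 20 with 1 library left out, with 20 without shNC 1 and 14 without shNC 2. With all 4 libraries these were, per list, 0.0% (death receptor steps) to 22.2% (p53 targets) of its tested genes. Among these lists of related genes, only the p53 targets exceeded the 14.2% of all tested genes. The number over all genes also rose without shNC 1, from 1998 to 3515, but not without shNC 2. Whether the lists changed more than all genes was not tested. The libraries share only a number, since the labels name no common culture. With the replicate number as a block, list DEGs numbered 15 and members 3, and all DEGs 2447, which is 17.4% of all tested genes. The deviations of same-numbered libraries correlated at 0.182.

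With 1 library left out, log2 fold changes in edgeR ran from -0.15 to 0.03 for MCL1, -0.29 to 0.01 for BAK1, -0.61 to 0.21 for BCL2L11 (-0.63 to 0.20 in limma), -0.23 to 0.15 for BBC3 and -0.16 to 0.24 for PMAIP1, which was -0.05 with library size only. The difference between groups (shTPX2 minus shNC) in the log2 ratio of anti-apoptotic genes to effectors ran from -0.22 to 0.01. For the log2 ratio to BH3-only genes this difference ran from -0.24 to -0.06. With expected counts these differences were -0.06 and -0.09. BCL2 became a DEG with quantile normalization (0.75). The causes were not tested.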

Other observations

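The expected count and the FPKM of a gene imply the average transcript length that the quantification used in a library, which moves when the estimated mix of transcripts moves. This was computed after the values had been seen. For 9 of the 10 genes the implied length varied by 2.12% or less over the 4 libraries. It was 2500 and 2540 bases in shNC and 2509 and 2509 bases in shTPX2 for BCL2L1, whose long and short splice forms encode an anti-apoptotic and a pro-apoptotic protein. For MCL1 it was 4117 and 4062 bases against 4119 and 4049 bases, for BID 2182 and 2202 against 2201 and 2203 bases, and for BCL2L11 4968 and 4978 against 5045 and 4956 bases. The groups overlapped in MCL1, BCL2L1 and BCL2L11, and for BID shTPX2 1 lay between the shNC libraries. BCL2 was the exception, at 3559 and 4398 against 3323 and 3900 bases, with 28 to 53 expected counts behind each value. Splice forms of similar length would not be seen by this measure. The values for MCL1 exceeded 3932 bases, the length of its longest coding transcript read from GENCODE v29. The annotation behind the deposited values is not given, so they cannot be read as lengths of GENCODE v29 transcripts.

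CDH5, an endothelial cadherin, was the 1 gene of the marker lists with an adjusted p under 0.05 in DESeq2 (0.0184, 0.439 in edgeR), at 14.37 and 18.09 TPM under shNC against 26.71 and 30.51 TPM under shTPX2. The endothelial marker PECAM1 had a log2 fold change of -0.79 and VWF stood at 0.17 TPM or less.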
